A study of Mus musculus with 9 samples.

Results

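The angiotensin, vasopressin and kinin system was followed through 10 genes, found by symbol in the expression table among 21958 genes with values. They were Ace, Agt, Agtr1a, Agtr1b, Agtr2, Avpr1a, Bdkrb1, Bdkrb2, Mme and Ednra. The genes were chosen by their family and with their measured levels in all 9 libraries known, among them the higher levels of Ace, Agtr2 and Avpr1a in mutant cells. Their levels and differences are therefore given as a description, with standard errors and without tests, and a count of genes past a threshold supports nothing here.

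The cells were periosteal progenitors of the mouse mandible, taken from the membrane that covers the jaw bone and grown in culture. There were 3 libraries of CTSK-iCre;Plagl1 fl/fl cells (mutant) and 3 of Plagl1 fl/fl cells (control), both after 3 days in osteogenic medium. A further 3 control libraries came from day 0, without the additives. Induction here means control day 3 against control day 0. No group spent 3 days without the additives, so time in culture and the additives cannot be told apart. There was no mutant group at day 0, so whether a difference between genotypes was there before induction was not measured. The additives of the osteogenic medium were dexamethasone at 100 nM, a synthetic glucocorticoid, with ascorbic acid at 50 ug/ml and b-glycerophosphate at 5 mM. All 3 groups carried the floxed Plagl1 alleles, and the Ctsk promoter that drives the Cre is active in periosteal progenitors and also in osteoclasts. Nothing in the labels says how many animals stand behind a library or whether replicates were cultured apart, so a p-value speaks only for the scatter of these libraries, and that scatter may be technical.

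Angiotensinogen, the product of Agt, is cut by renin to angiotensin I, and angiotensin-converting enzyme, the product of Ace, turns that into angiotensin II, which acts on the AT1 and AT2 receptors. AT1 receptors raise calcium through Gq proteins, constrict vessels and promote growth, while AT2 receptors often oppose them and are abundant in fetal mesenchyme. The same converting enzyme degrades bradykinin, a peptide released from kininogen that acts on the B1 and B2 receptors. Neprilysin, the product of Mme, cuts several of these peptides. Local angiotensin systems, with AT1 and AT2 receptors, are known in bone and its cells.

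The libraries held 16204327 to 19859744 counted reads. Values are given as CPM, the read count scaled to a common library size that was adjusted by TMM factors. Plagl1 was at 26.3, 24.2 and 24.8 CPM in the mutant libraries, against 43.9, 44.9 and 45.8 CPM in the day 3 control libraries. Transcripts remained, and the counts cover the whole gene, so they do not show which share of cells had lost it. The 4 Y-linked marker genes summed to 91.6 to 108 CPM in the mutant libraries, against 261 to 282 CPM in the day 3 control libraries. Genotype and the sex makeup of the cultures can thus not be told apart in any difference below. All 9 periosteal progenitor markers were tested, of which 3 were higher and 4 lower in the mutant, with Postn at 4510 and Prrx1 at 489 CPM on average in the mutant libraries, against 5250 and 615 CPM in day 3 control libraries, both lower. Of the markers that were higher, Ly6a was at 1.45 and Thy1 at 1.7 times control. Macrophage markers were also abundant, with a summed level of 24200 to 26700 CPM in the mutant libraries, 23300 to 25300 CPM in day 3 control libraries and 16200 to 16700 CPM at day 0. Of these 15 markers 8 were higher in the mutant and none was lower, with a median log2 difference of 0.17. Of 8 tested osteoblast markers 7 were lower in the mutant and none was higher, with a median of −0.73. Among all 13013 tested genes, 7.95% were higher and 9.74% lower in the mutant. The 5 epithelial markers summed to 0.579 CPM at most in any library. In such mixed bulk samples, fewer cells of a type and less RNA per cell cannot be told apart.

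Promoter windows, from 250 bases before to 50 bases after an annotated start, were on hand for 8 of the 10 genes, from RefSeq on GRCm38.p6. The build differs from the GRCm39 of the count table. Shown here are the windows of Ace (the first of 2), Agtr2 and Avpr1a, whose levels were higher in the mutant, and of the precursor gene Agt. Capitals mark TATAAA, the core letters of a TATA box, on either strand.
Ace, chr11:105967698-105967997, plus strand: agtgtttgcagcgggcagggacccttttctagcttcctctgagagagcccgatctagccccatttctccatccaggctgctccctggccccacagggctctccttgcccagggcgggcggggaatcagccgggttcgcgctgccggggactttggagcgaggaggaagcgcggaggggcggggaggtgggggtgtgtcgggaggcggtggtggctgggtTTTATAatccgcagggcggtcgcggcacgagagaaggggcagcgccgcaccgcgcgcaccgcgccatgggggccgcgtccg
Agtr2, chrX:21484374-21484673, plus strand: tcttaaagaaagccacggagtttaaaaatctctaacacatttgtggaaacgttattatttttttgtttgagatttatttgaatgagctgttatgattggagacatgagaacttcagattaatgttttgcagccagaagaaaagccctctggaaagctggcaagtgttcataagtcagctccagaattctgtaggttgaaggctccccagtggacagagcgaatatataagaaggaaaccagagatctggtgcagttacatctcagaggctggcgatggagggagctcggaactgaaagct
Avpr1a, chr10:122448249-122448548, plus strand: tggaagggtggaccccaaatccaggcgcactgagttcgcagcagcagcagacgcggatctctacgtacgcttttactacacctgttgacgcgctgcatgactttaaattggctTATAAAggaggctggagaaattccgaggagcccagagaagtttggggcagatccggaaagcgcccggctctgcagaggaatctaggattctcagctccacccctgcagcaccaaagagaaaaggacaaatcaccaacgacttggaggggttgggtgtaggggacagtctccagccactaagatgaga
Agt, chr8:124569657-124569956, minus strand: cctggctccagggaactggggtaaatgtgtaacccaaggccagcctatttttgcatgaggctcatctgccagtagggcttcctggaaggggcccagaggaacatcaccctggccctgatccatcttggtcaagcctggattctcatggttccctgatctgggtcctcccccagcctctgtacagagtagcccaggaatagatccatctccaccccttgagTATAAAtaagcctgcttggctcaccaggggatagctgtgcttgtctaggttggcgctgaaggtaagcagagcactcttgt

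The windows of Ace and Agt held these letters with the leftmost base 31 and 30 bases before the start, the usual distance of a TATA box. In Ace the match was on the opposite strand. Avpr1a held them 137 bases before its start, and the Agtr2 window did not hold these exact letters. The Agtr2 window did hold the similar letters TATATAAG, which were not searched for. A missing match of TATAAA thus does not show that a TATA box was absent. Among all 32851 windows of this length, 13.6% held TATAAA on either strand. The windows of Ace and Agtr2 also differed in base composition, with 69.7% and 41.3% G and C, against a median of 52.7% over all windows. Since dexamethasone was in the medium, the windows were searched on both strands for AGAACA, 1 arm of a glucocorticoid response element, which 19.0% of all windows held. None of the 11 windows of the 8 genes held it, nor therefore the full element of AGAACA, any 3 bases and TGTTCT. The letters GGGGCCCC, the core of a published PLAGL1 motif, were in 1.08% of all windows and in none of the 11. These are matches of letters in short windows and do not show where a factor binds.

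Ace (ENSMUSG00000020681, chromosome 11, 105858771 to 105880790, plus strand, GRCm39) showed the widest range of the 10 genes. It was at 149, 163 and 142 CPM in the mutant libraries, at 51.1, 52.2 and 65.6 CPM in the day 3 control libraries, and at 0.535, 0.334 and 0.290 CPM at day 0. The 3 groups did not overlap, and each was far from the next. Control cells at day 3 were 140-fold above day 0 (log2 fold change 7.13 ± 0.176 SE), where only 22 reads were counted over 3 libraries. Mutant cells were 2.69-fold above control cells at day 3 (1.43 ± 0.0798). Ace is a known gene of endothelial cells. The 11 endothelial markers together summed to 16.5 to 20.2 CPM in the mutant libraries, 20 to 23.3 CPM in day 3 control libraries and 25.0 to 30.2 CPM at day 0. Flt1 had the largest part in the day 3 sums, with means of 7.98 CPM in the mutant and 14.1 CPM in day 3 control libraries. In the mutant, 2 of the 8 tested markers were higher (Cdh5 and Emcn), 1 was lower (Flt1) and 5 were neither. The median log2 difference of the 8 was 0.52. Among all tested genes, 7.95% were higher and 9.74% lower. Pecam1 was at 1.6, 1.56 and 2.34 CPM in the mutant libraries, which overlapped the 1.58, 0.721 and 0.248 CPM of day 3 control libraries. Cldn5 had no read in either control group and 2, 1 and 2 reads in the mutant libraries, too few to test. Tek and Tie1, also not tested, had 31 and 14 reads over the mutant libraries and 18 and 3 over the day 3 control libraries. Whether endothelial cells had a part in the Ace reads was not tested.

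Agt, the precursor gene (ENSMUSG00000031980, chromosome 8, 125283273 to 125296445, minus strand), was higher at day 3 than at day 0. It was at 6.82, 7.62 and 6.92 CPM in the mutant libraries, at 10.4, 8.50 and 8.32 CPM in the day 3 control libraries, and at 1.41, 1.17 and 1.85 CPM at day 0. Day 3 control cells were 6.15-fold above day 0 (2.62 ± 0.179 SE). All mutant libraries lay below all day 3 control libraries, with a log2 difference of −0.35 ± 0.139 that did not pass the threshold (edgeR adjusted p below 0.05). Agt was thus the only one of the 9 tested genes whose 3 mutant libraries lay wholly below those of day 3 control cells. Among all tested genes, 17% did. Renin was not read at all: Ren1 had 0 reads in all 9 libraries, where 3 counts would correspond to 0.146 to 0.186 CPM. Cma1 and Mcpt4, mast cell proteases that can form angiotensin II, also had 0 reads. Not every listed protease gene of the angiotensin system was unread. Ctsd averaged 1430 CPM in the mutant, 1390 CPM in day 3 control and 1350 CPM in day 0 libraries, and passed in neither comparison.

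Agtr2 (ENSMUSG00000068122, X chromosome, 21350783 to 21355403, plus strand), which encodes the AT2 receptor, differed between all 3 groups. It was at 81.2, 78.5 and 78.2 CPM in the mutant libraries, at 25.5, 28.7 and 21.2 CPM in the day 3 control libraries, and at 1.99, 1.78 and 2.26 CPM at day 0. No group overlapped another. The log2 difference was 1.65 ± 0.0828 SE (3.14-fold) for mutant against control at day 3, and 3.65 ± 0.134 (12.5-fold) for control day 3 against day 0. Agtr2 is X-linked, and the Y-linked genes differed between the genotypes. Of 447 tested X-linked genes, 6.04% were higher and 13.4% lower in the mutant, with a median log2 difference of −0.05, against 8.02% higher and 9.59% lower among autosomal genes. The part of sex in the Agtr2 difference was not tested.

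Agtr1a (ENSMUSG00000049115, chromosome 13, 30520424 to 30566850), which encodes the main AT1 receptor of the mouse, went against Agtr2 on induction and with it in the mutant. It was at 4.21, 3.64 and 4.34 CPM in the mutant libraries, at 0.817, 0.361 and 0.683 CPM in the day 3 control libraries, and at 1.95, 1.06 and 2.55 CPM at day 0. These rest on 63 to 76 reads per mutant library and on 7 to 15 reads per day 3 control library. Day 3 control cells were at 0.335 times the day 0 level (−1.58 ± 0.352 SE), and mutant cells were 6.56-fold above day 3 control cells (2.71 ± 0.312). Mutant cells also lay above all day 0 libraries. The log2 difference between genotypes was the largest of the 9 tested genes, on 33 reads over the 3 day 3 control libraries. AT1 receptors are known in pericytes and vascular smooth muscle. Of 11 tested markers of those cells 7 were lower in the mutant and none was higher, where 9.74% of all tested genes were lower. The 12 listed summed to 551 to 641 CPM in the mutant libraries, 815 to 923 CPM in day 3 control libraries and 2770 to 2850 CPM at day 0. The part of those cells in the Agtr1a level was not tested. Agtr1b, the second AT1 gene of rodents (chromosome 3), had 1, 0 and 0 reads in the mutant libraries, 2, 2 and 1 in the day 3 control libraries and 1, 4 and 0 at day 0, too few to test. Agtr1a and Agtr1b are close copies, and how the counting treated reads that match both is not known.

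**Figure D1:**
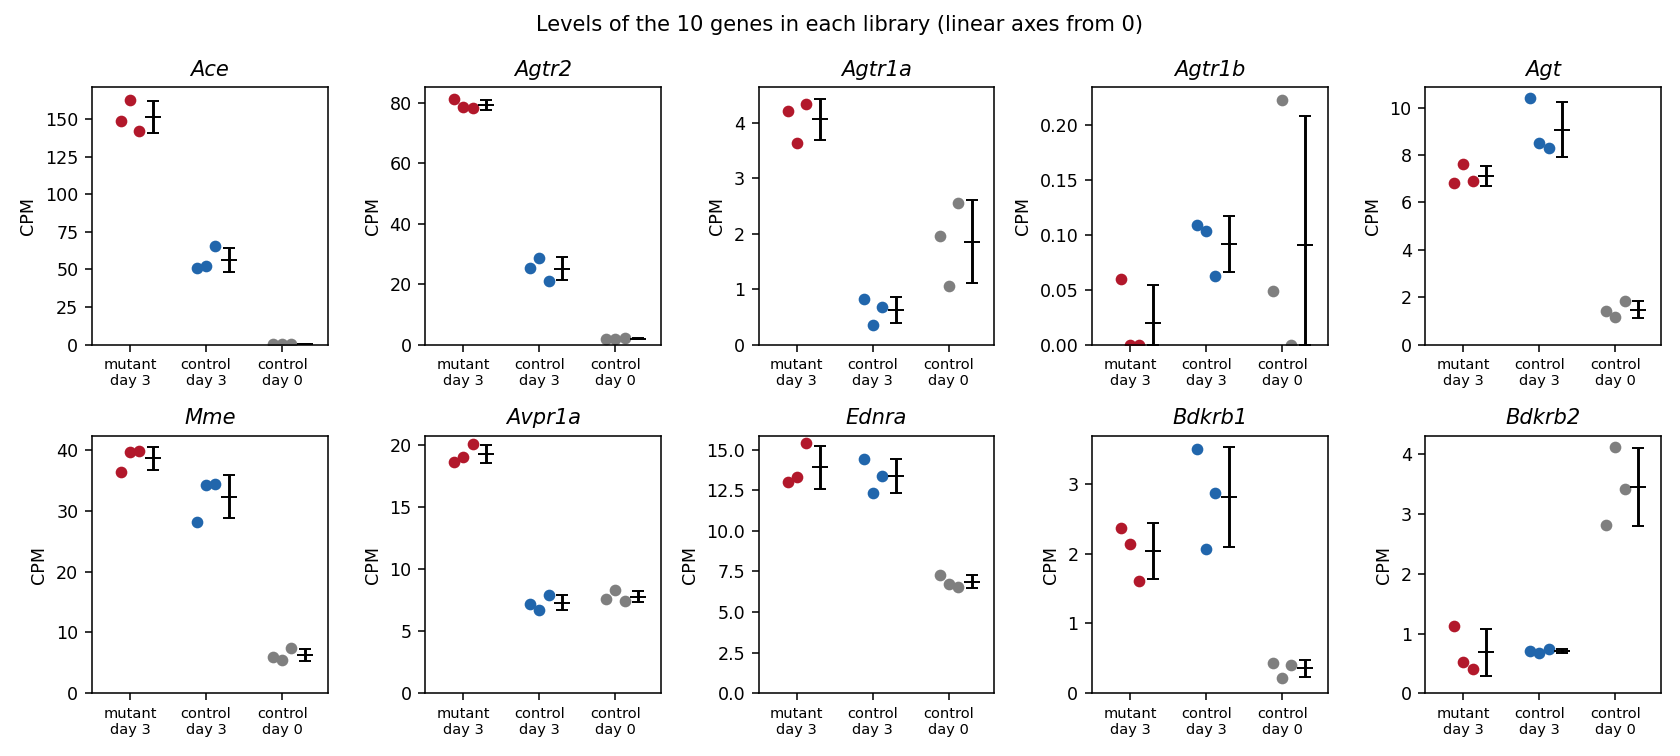
Level of each of the 10 genes in CPM (linear axes from 0), with 1 dot per library and the mean ± SD of 3 libraries beside it, for mutant day 3, control day 3 and control day 0. Ace and Agtr2 step down from mutant to day 3 control to day 0, whereas Agtr1a and Avpr1a are highest in the mutant and Bdkrb2 is high at day 0.

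The balance of the 2 angiotensin receptor genes was read within each library from the deposited FPKM, which allow for gene length. Agtr2 over Agtr1a was 16.2, 18.1 and 15.1 in the mutant libraries, 26.2, 66.7 and 26.0 in the day 3 control libraries, and 0.859, 1.41 and 0.742 at day 0. At day 0 the 2 transcripts were thus at similar levels, while AT2 transcripts prevailed in every day 3 library. Every mutant ratio lay below every day 3 control ratio, although both genes were higher in the mutant. The value of 66.7 comes from the library with 7 Agtr1a reads.

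The vasopressin receptor gene Avpr1a (ENSMUSG00000020123, chromosome 10, 122284404 to 122289357) encodes the V1a receptor, which like AT1 acts through Gq. It was at 18.7, 19.1 and 20.1 CPM in the mutant libraries, at 7.19, 6.75 and 7.95 CPM in the day 3 control libraries, and at 7.64, 8.30 and 7.47 CPM at day 0. The control groups overlapped (−0.10 ± 0.116 SE), and all mutant libraries lay above both, 2.65-fold over control at day 3 (1.41 ± 0.105). It was the only one of the 9 tested genes whose control groups overlapped. Among all tested genes, these groups did not overlap for 70.8%. Avp, which encodes vasopressin, had 1 read in 1 mutant library and none elsewhere, and the receptor gene Avpr1b had none.

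The kinin receptor genes lie next to each other on chromosome 12, both on the plus strand, with 7848 bases between the end of Bdkrb2 (105529485 to 105561496) and the start of Bdkrb1 (105569344 to 105571687). They moved apart on induction. Bdkrb1, whose B1 receptor is known to be induced by inflammation, was at 2.37, 2.14 and 1.60 CPM in the mutant libraries, at 3.49, 2.06 and 2.86 CPM in day 3 control libraries, and at 0.438, 0.223 and 0.406 CPM at day 0. Bdkrb2, whose B2 receptor is the usual constitutive one, was at 1.13, 0.520 and 0.400 CPM in the mutant libraries, at 0.708, 0.670 and 0.745 CPM in day 3 control libraries, and at 2.82, 4.12 and 3.42 CPM at day 0. In control cells Bdkrb1 was 7.66-fold higher at day 3 than at day 0 (2.94 ± 0.340 SE), and Bdkrb2 was at 0.207 times (−2.27 ± 0.298). For both genes, the mutant libraries overlapped those of day 3 control cells (−0.46 ± 0.248 and −0.06 ± 0.404). In FPKM, Bdkrb1 over Bdkrb2 was 5.56, 10.9 and 10.6 in mutant, 13.0, 8.13 and 10.1 in day 3 control and 0.410, 0.143 and 0.314 in day 0 libraries. The receptor with more transcripts per length was thus B2 in control cells at day 0 and B1 in both genotypes at day 3.

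**Figure D2:**
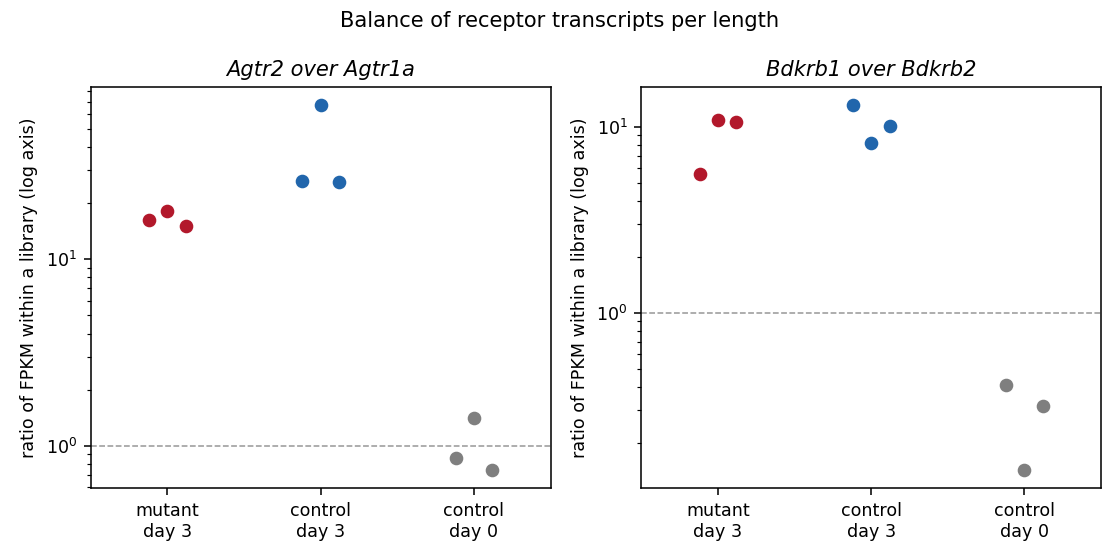
Ratio of deposited FPKM within each library (log axis, 1 dot per library, dashed line at a ratio of 1) for Agtr2 over Agtr1a and Bdkrb1 over Bdkrb2, in mutant day 3, control day 3 and control day 0. Bdkrb1 over Bdkrb2 lies under 1 in all day 0 libraries and above 1 in all day 3 libraries, and Agtr2 over Agtr1a lies near 1 at day 0 and above 15 at day 3.

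Mme (ENSMUSG00000027820, chromosome 3, 63148958 to 63293451), also known as CD10 and used as a surface marker of stromal cells, was at 36.4, 39.7 and 39.8 CPM in the mutant libraries. Day 3 control libraries had 28.2, 34.3 and 34.4 CPM and day 0 libraries 5.98, 5.46 and 7.36 CPM. Its day 3 control level was 5.16-fold that of day 0 (2.37 ± 0.110 SE). Mutant libraries lay just above those of day 3 control cells (0.26 ± 0.0880), a difference that fell short of the threshold when any 1 of the 6 libraries was left out, with log2 differences of 0.17 to 0.31. Ednra (ENSMUSG00000031616, chromosome 8, 78389660 to 78451093), the receptor for endothelin 1 that patterns the lower jaw in the embryo, was at 13.0, 13.3 and 15.4 CPM in the mutant libraries, 14.4, 12.3 and 13.4 CPM in day 3 control libraries, and 7.30, 6.74 and 6.55 CPM at day 0. It was 1.94-fold higher in control cells at day 3 than at day 0 (0.95 ± 0.115), while the 2 genotypes overlapped at day 3 (0.07 ± 0.105).

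Per length, the order of the genes changed between the groups. In the mutant libraries Ace (27.6 ± 1.9 FPKM) and Agtr2 (22.9 ± 0.439 FPKM) led, followed by Avpr1a (6.96 ± 0.301 FPKM, SD, n = 3 each). Day 3 control libraries had Ace (10.4 ± 1.5 FPKM), Agtr2 (7.38 ± 1.11 FPKM) and Agt (4.68 ± 0.585 FPKM) at the top. There Mme (2.73 FPKM), Avpr1a (2.67 FPKM), Ednra (2.38 FPKM) and Bdkrb1 (1.91 FPKM) followed, each overlapping its neighbour among these 4, and Bdkrb1 lay apart from Agtr1a, the next in order. At day 0, Avpr1a (3.11 ± 0.160 FPKM) came first and Ednra (1.33 ± 0.0775 FPKM) second, while Ace (0.0777 ± 0.0264 FPKM) overlapped Agtr1b at the bottom. Below Ednra came Bdkrb2, Agt, Agtr1a, Agtr2 and Mme, with means of 0.967 to 0.577 FPKM and neighbours that overlapped. Bdkrb1 (0.263 ± 0.0868 FPKM) followed, apart from both Mme and Ace. Ace was thus next to last among the 10 at day 0 and first in every day 3 group.

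**Figure D3:**
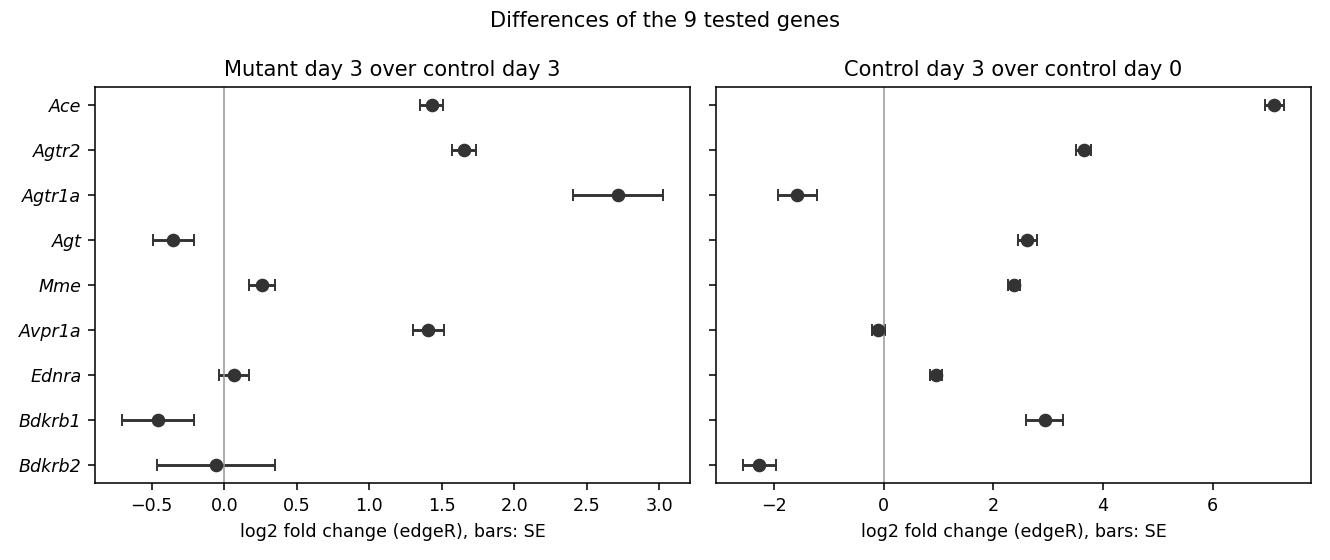
Log2 fold change with its standard error for the 9 tested genes, mutant over control at day 3 on the left and control day 3 over day 0 on the right. Agtr1a has the largest difference between the genotypes (2.71) and Ace the largest on induction (7.13), with Agtr1a and Bdkrb2 left of 0 on induction.

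Both comparisons share the day 3 control libraries, so a high or low day 3 control value moves both, in opposite directions. Of the 9 tested genes, 5 passed the threshold in mutant against control at day 3, all of them higher and none lower, where 17.7% of all 13013 tested genes passed, 7.95% higher and 9.74% lower. These were Ace, Agtr2, Agtr1a, Avpr1a and Mme, and the median log2 difference over the 9 was 0.26, against 0.00 over all tested genes. The 2 groups of libraries did not overlap for 6 of the 9 genes, 5 higher and 1 lower, where this held for 33.4% of all tested genes, 16.4% higher and 17% lower. On induction 6 were higher and 2 lower, where 65.5% of all genes passed, 33.1% higher and 32.4% lower, and the median was 2.37, against 0.01. Day 3 and day 0 control libraries did not overlap for the same 8 genes, where this held for 70.8% of all tested genes, 35.5% higher and 35.2% lower. As the genes were picked with these values known, nothing is read from these counts.

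Other genes of the same systems were taken from lists of 81 genes drawn up by function and not by how they moved. The lists were, however, chosen with earlier results of these data known. Of the 81 genes, 80 had a row in the table, 54 had enough reads to be tested, and 9 had no read in any library. In mutant against control at day 3, 8 were higher and 5 lower (24.1% of the 54, against 17.7% of all tested genes). The larger number of higher genes rested on single libraries: without control day 3 replicate 2 there were 5 higher and 5 lower, and without control day 3 replicate 3 or mutant replicate 1 there were 5 higher and 6 lower. With no filter on low counts there were 6 higher and 7 lower. On induction 23 rose and 13 fell (66.7%, against 65.5%). The share that passed on induction was thus close to that of all genes.

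Of 6 tested kinin genes, 4 rose and none fell on induction (66.7%, against 65.5% of all tested genes). In the mutant 1 was higher and none lower (16.7%, against 17.7%). Kng1, which encodes the kininogen from which bradykinin is cut, was at 4.39, 4.73 and 3.89 CPM in the mutant libraries, 6.10, 5.67 and 5.22 CPM in day 3 control libraries, and 0.340, 0.167 and 0.290 CPM at day 0. It rose 20.6-fold on induction (4.36 ± 0.268 SE, edgeR adjusted p = 2.72e-12), and its near copy Kng2 rose 15.1-fold (3.91 ± 0.313, adjusted p = 2.73e-10). How the counting treated reads that match both of these 2 close copies is not known. Neither passed in the mutant (−0.39, adjusted p = 0.105, and −0.26, adjusted p = 0.407), although all 3 mutant libraries lay below all day 3 control libraries for both genes, for Kng2 by as little as 3.2 against 3.21 CPM. Serping1, the C1 inhibitor that restrains plasma kallikrein and so the release of bradykinin, was at 1070, 1140 and 1030 CPM in the mutant libraries, 713, 724 and 726 CPM in day 3 control libraries, and 34.9, 39.2 and 37.2 CPM at day 0. It rose 19.5-fold on induction (adjusted p = 2.7e-23) and was 1.5-fold higher in the mutant (0.58 ± 0.0524, adjusted p = 3.04e-08). The kinin-releasing proteases were barely read: Klk1 had 1 read and F12 none over 9 libraries, and Klkb1 had 8, 7 and 2 reads in mutant, day 3 control and day 0 groups. Xpnpep2, a peptidase that degrades bradykinin, rose on induction (log2 change 1.88, adjusted p = 0.00328), a call lost when only the 6 control libraries were fitted.

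Among 15 tested angiotensin genes, 7 rose and 3 fell on induction (66.7% of them, against 65.5% of all tested genes), and 3 were higher and 1 lower in the mutant (26.7%, against 17.7%). Agtrap, which encodes a protein that binds the AT1 receptor and promotes its internalisation, was at 167, 168 and 162 CPM in the mutant libraries, 127, 123 and 133 CPM in day 3 control libraries and 39.6, 42.4 and 41.0 CPM at day 0. It rose 3.11-fold on induction (adjusted p = 1.37e-16) and was 1.30-fold higher in the mutant (adjusted p = 1.97e-05), so all 3 groups were apart. Mtus1, whose products bind the AT2 receptor, was lower in the mutant at 0.806 times control (adjusted p = 0.008). Enpep, the aminopeptidase that turns angiotensin II into angiotensin III, rose 5.91-fold on induction (2.56 ± 0.145, adjusted p = 6.28e-13). Anpep, which cuts angiotensin III further, fell to 0.451 times day 0 (−1.15 ± 0.0715, adjusted p = 3.52e-12). Enpep and Anpep did not pass in the mutant (0.05, adjusted p = 0.782, and 0.12, adjusted p = 0.261). Prep fell to 0.555 times on induction (adjusted p = 6.96e-12) and Ctsa rose 1.37-fold (adjusted p = 2.85e-07). Thop1, an oligopeptidase that can form angiotensin 1-7, fell to 0.780 times on induction (adjusted p = 0.000411) and was 1.28-fold higher in the mutant (adjusted p = 0.00288). The fourth gene that passed in the mutant, Rnpep, was 1.12-fold higher (adjusted p = 0.0382), a call lost in 8 of the 11 alternatives, among them those without mutant replicate 1 or 3 and without any 1 day 3 control library. Mas1, the receptor gene for angiotensin 1-7, had 8, 13 and 8 reads in the mutant, day 3 control and day 0 groups.

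Oxtr, the oxytocin receptor gene and close relative of Avpr1a, was at 4.03, 4.68 and 4.0 CPM in the mutant libraries, 0.980, 1.29 and 1.62 CPM in day 3 control libraries, and 0.146, 0.0557 and 0 CPM at day 0. It was 3.29-fold higher in the mutant than in control at day 3 (1.72 ± 0.246, adjusted p = 2.52e-05) and rose on induction (adjusted p = 8.26e-07), with 69 reads over the day 3 control libraries and 4 over those of day 0. Unlike Avpr1a it was thus apart in all 3 groups. Oxt had 2 reads, both at day 0.

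**Figure D4:**
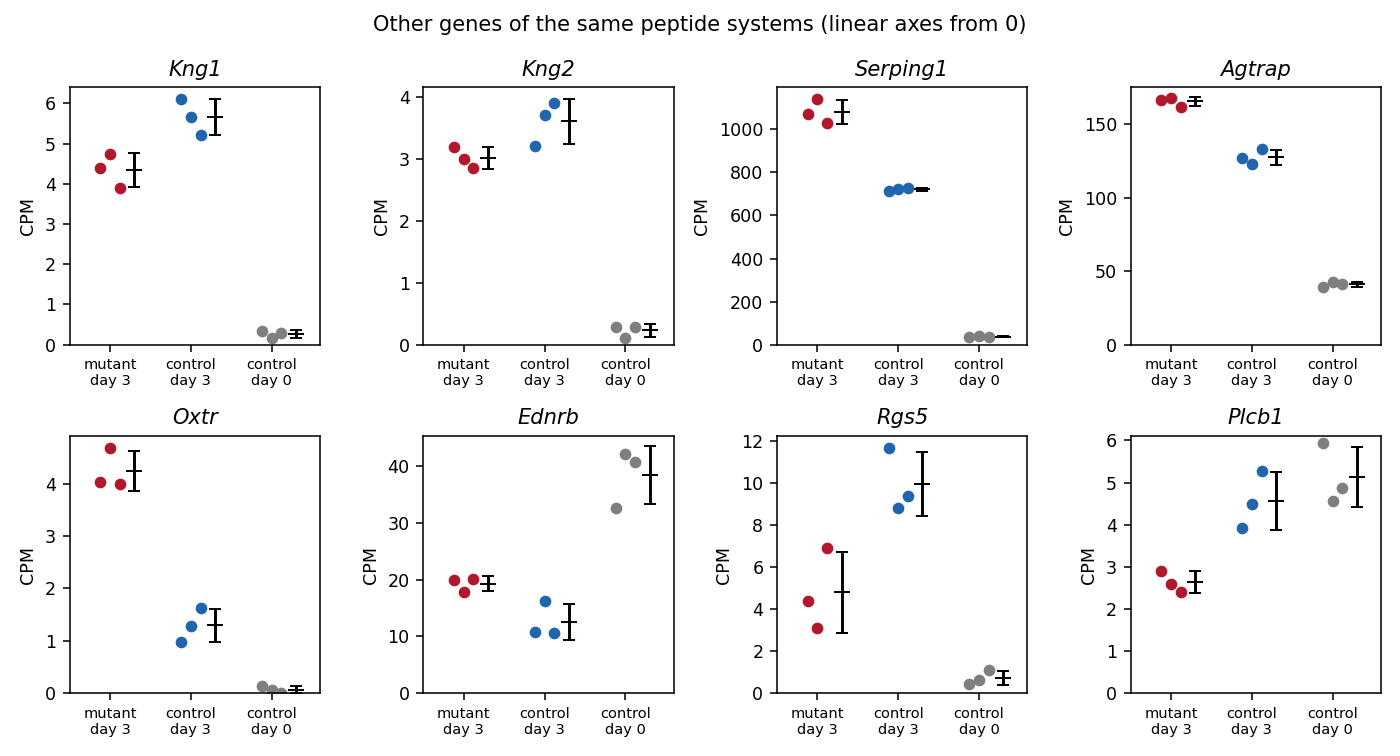
Level in CPM (linear axes from 0) of 8 other genes of these systems, 1 dot per library with the mean ± SD of 3 libraries, for mutant day 3, control day 3 and control day 0. Kng1 and Kng2 are near 0 at day 0 and at 2.86 to 6.1 CPM in both day 3 groups, while Serping1, Agtrap and Oxtr are highest in the mutant and Rgs5 is highest in day 3 control cells.

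Of the 7 listed endothelin genes 3 had enough reads to be tested. These 3 passed as higher in the mutant, where 7.95% of all tested genes did. The calls of Edn1 and Ece1 were lost in 6 and 7 of the 11 alternatives. For Ednra the genotypes overlapped. Ednrb, the second endothelin receptor gene, was at 20, 17.8 and 20.2 CPM in the mutant libraries, 10.8, 16.2 and 10.7 CPM in day 3 control libraries, and 32.7, 42.2 and 40.7 CPM at day 0. It fell on induction to 0.330 times day 0 (adjusted p = 1.64e-10) and was 1.53-fold higher in the mutant (0.61 ± 0.133, adjusted p = 0.0024), as seen for Agtr1a. Edn1, the ligand gene, was 1.47-fold higher (adjusted p = 0.0427) and Ece1, which activates endothelins and also cuts bradykinin, was 1.12-fold higher (adjusted p = 0.049). The Edn1 call was lost without any 1 day 3 control library and without mutant replicate 1 or 2, and with DESeq2, and the Ece1 call without any 1 day 3 control library and without mutant replicate 1 or 3.

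Steroid and natriuretic genes border on these systems. Of 3 tested steroid genes, 2 rose on induction (66.7%, against 65.5% of all tested genes) and none passed in the mutant. Nr3c2 passed in neither comparison. All 3 tested natriuretic genes rose on induction, and 1 was lower in the mutant (33.3%, against 17.7%). Hsd11b1, which regenerates active glucocorticoid, rose 8.07-fold on induction (3.01 ± 0.275, adjusted p = 2.5e-09), to 4.95 CPM in day 3 control cells, against 0.591 CPM at day 0. Hsd11b2, which inactivates glucocorticoid, rose 4.57-fold (adjusted p = 0.000828), from 10, 1 and 1 reads in the day 0 libraries. All 9 glucocorticoid response genes examined rose on induction, where 33.1% of all tested genes did. Their median log2 change was 2.28, against 0.01 over all tested genes. Npr2, the receptor for C-type natriuretic peptide, a growth signal of bone, rose 1.34-fold on induction (adjusted p = 0.000123) and was at 0.782 times control in the mutant (adjusted p = 0.004). The ligand gene Nppc had no read. Npr1, the receptor for atrial natriuretic peptide, rose on induction (log2 change 1.35, adjusted p = 0.04), a call lost in 7 of the 11 alternatives, DESeq2 among them. Npr3, the clearance receptor gene, rose less (0.24, adjusted p = 0.00215) and was at 257 ± 25.9 CPM in mutant and 245 ± 7.67 CPM in day 3 control cells (SD, n = 3 each).

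Of the 21 genes through which Gq-coupled receptors such as AT1, V1a, B1, B2 and the endothelin receptors signal or are switched off, 5 rose and 9 fell on induction (66.7% of them, against 65.5% of all tested genes). Gnaq, the Gq alpha subunit gene, fell to 0.625 times day 0 (adjusted p = 3.45e-10) and Rgs2, a brake on Gq, to 0.391 times (adjusted p = 7.96e-14). Of the genes for the alpha subunits G12 and G13, Gna12 fell to 0.565 times (adjusted p = 1.41e-10) and Gna13 rose 1.79-fold (adjusted p = 2.85e-10). In the mutant 3 genes were lower and none higher (14.3%, against 17.7% of all tested genes). Plcb1, a phospholipase that Gq activates, was at 0.580 times control (−0.79 ± 0.186, adjusted p = 0.00469). Itpr1, a calcium channel opened by the product of that enzyme, was at 0.759 times (−0.40 ± 0.0691, adjusted p = 0.000245). Rgs5, a brake on Gq that is also 1 of the 12 pericyte and smooth muscle markers, was at 0.483 times (−1.05 ± 0.209, adjusted p = 0.00103), with 4.39, 3.12 and 6.92 CPM in mutant libraries and 11.7, 8.81 and 9.38 CPM in day 3 control libraries, after a 14.1-fold rise on induction (adjusted p = 1.1e-10).

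**Figure D5:**
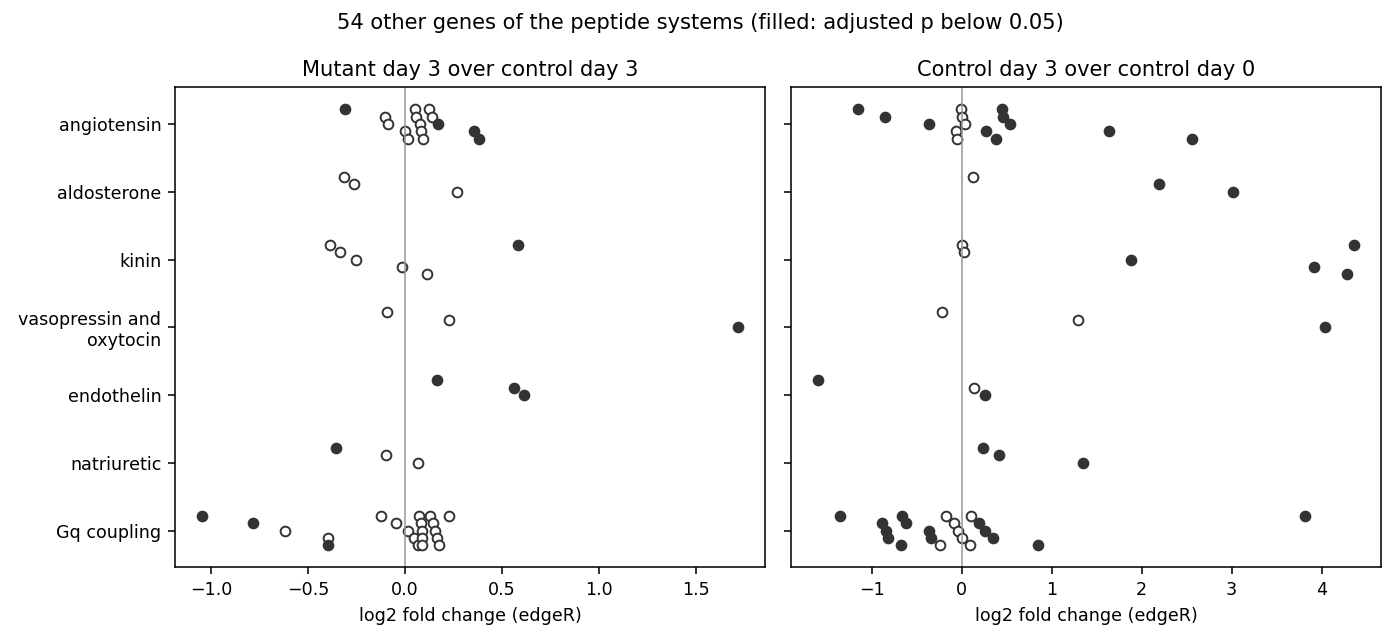
Log2 fold change of 54 other genes of these systems by list, 1 dot per gene, mutant over control at day 3 on the left and control day 3 over day 0 on the right; filled dots passed edgeR's adjusted p below 0.05. Induction moved 36 of the genes, up to 4.36 for Kng1, and 13 passed between genotypes, from −1.05 for Rgs5 to 1.72 for Oxtr.

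The genes with the pattern closest to 3 of the receptors and enzymes were ranked by Pearson's r of log2 CPM over the 9 libraries, among 10351 genes with a mean of at least 5 CPM. The 9 libraries form 3 groups and are not independent points, so the r values describe these libraries only. A high r does not mean that the differences were of similar size. Closest to Agtr2 were Chrdl1, a BMP antagonist gene (r = 0.998), and Dcn, which encodes the small proteoglycan decorin (r = 0.997), followed by Mms19, Ampd3 and Sphk2. Chrdl1 averaged 191 CPM in the mutant, 83.9 CPM in day 3 control and 10.6 CPM in day 0 libraries. Mms19 differed less, with 65.4, 59.0 and 45.6 CPM in the same order. Closest to Ace were Pycard and the protease gene Adamts15 (r = 0.999 each), Sfrp1, Gbp2 and Ifi211. Adamts15 averaged 29.4 CPM in the mutant, 10.5 CPM in day 3 control and 0.0703 CPM in day 0 libraries. Pycard differed less, with 57.1, 42.5 and 10.9 CPM in the same order. Closest to Avpr1a was Ntn1, which encodes the guidance protein netrin 1 (r = 0.987), followed at r = 0.962 or less by Cab39l, Adgrd1, Cd151 and Peli2. Ntn1 averaged 23.6 CPM in the mutant, 11.7 CPM in day 3 control and 11.3 CPM in day 0 libraries, so it too differed little between the control groups.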

How the data were processed

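RNA-seq of 9 libraries in 3 groups was used. The authors trimmed, aligned and counted with cutadapt, HISAT2 and HTSeq on GRCm39 according to the submitters' processing notes. Versions, the annotation release and any strand option were not given in the sources used here. Raw read counts per gene and FPKM are the deposited values, per the file headers. The deposited FPKM equalled count over gene length and library total within 0.1% for all 11934 to 12253 genes checked per library, and served to compare levels between genes. The table's 1 empty row was dropped.

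Genes passing edgeR's filterByExpr (minimum count 10; 13013 genes) received TMM factors of 0.96 to 1.07. The quasi-likelihood model of edgeR 4.0.16 (R 4.3.3) had 1 mean per group, all 9 libraries and no replicate block. An adjusted p (Benjamini-Hochberg, all genes) below 0.05 was called. SE is the log2 fold change over the root of F. Floors of 3 counts cover counting error only. The fit was tested on simulated data. Alternatives were DESeq2 1.42.0, RLE factors, no filter, only the 6 libraries compared, a replicate block and each library left out. The members and lists were chosen with earlier results of these data known. The text names all members and, per pathway list and comparison, up to 5 called genes with the smallest p and the genes that define a step. Same-numbered libraries did not deviate together (r −0.077 to 0.028 in 9 pairs), so numbers were not taken as pairs. No 2 replicates agreed within sampling noise (chi-square per degree of freedom 2.71 to 11.5).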

Additional observations from a re-analysis of the deposited data

How the results depend on the processing

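On induction, all 9 tested members kept their direction and their side of the threshold under all 11 alternatives, and so did the counts, within 1.5 times. Between genotypes, 90 of 99 recomputed member values did so. Mme lost its call whichever of the 6 libraries was left out (0.17 to 0.31). The Bdkrb2 difference, not called, changed sign without mutant day 3 replicate 2 (0.10) or 3 (0.22) and ranged from −0.61 to 0.22 when 1 library was left out. That of Ednra, not called, changed sign without mutant day 3 replicate 3 (−0.013) and ranged from −0.013 to 0.13. Bdkrb2 had 7 to 19 reads and Ednra 220 to 270 reads per mutant library; the cause was not tested. The log2 difference of Agtr1a ranged from 2.42 to 2.98, of Agtr2 from 1.55 to 1.76, of Ace from 1.37 to 1.55 and of Avpr1a from 1.35 to 1.47 when 1 library was left out. Leaving out 1 library moved the count of genes called between genotypes from 2301 to between 1479 and 2948, the lowest without control day 3 replicate 2. The counts for the other pathway genes were then 10 to 15 (13 with all libraries) and on induction 35 to 37 (36). With the replicate number as a block, 12 pathway genes were called between genotypes (6 higher, 6 lower) and 36 on induction, and no member call changed; Rnpep and Ece1 lost theirs. DESeq2 called 13 and 35.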
